A study of Homo sapiens with 8 samples.

Results

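The response of human AC16 cells to a rise of glucose from 5 to 50 mM was read from 4 of the 8 RNA-seq libraries of the series, compared over all genes that reached 1 RPKM in 2 or more of these 4 libraries. AC16 is a proliferating human line, made by fusing primary ventricular heart cells with transformed fibroblasts, and no genetic change beyond the line itself is given. Both groups were kept in DMEM with serum and 5 mM D-glucose for at least 3 passages. The control group, replicates 1 and 3, stayed at 5 mM glucose, and the raised group, replicates 1 and 2, received a further 45 mM D-glucose for its last 24 h, for 50 mM in all. The other 4 libraries are a rise to 50 mM started from 25 mM, with its own controls. No library at 5 mM with a sugar that cells do not use was analysed here, so glucose and osmolarity cannot be told apart. The series calls its replicates technical, so p-values here reflect variation among libraries, possibly of technical origin alone. In bulk RNA fewer cells of a type and less RNA per cell cannot be told apart either.

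High extracellular glucose enters cells through facilitative transporters and feeds glycolysis, the polyol pathway (aldose reductase turns glucose into sorbitol), the hexosamine pathway and the pentose phosphate pathway, and it raises the osmotic strength of the medium. Interferon-stimulated genes encode the antiviral effectors that cells switch on when a type I interferon binds its receptor or when a nucleic acid sensor fires, through STAT and IRF factors that bind the interferon-stimulated response element (ISRE). YAP1 and TAZ (WWTR1), the co-activators named in the study's title, act through TEAD factors on genes for matricellular proteins and the cytoskeleton. The title also names the ERK pathway, to which the kinase MAPK3 belongs.

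Recovered library totals were 21538898 and 27372851 reads at 5 mM and 23347415 and 23231096 reads after the rise. RPKM is the read count of a gene scaled to the library total and to the length of the gene in kilobases. The gene lengths implied by the values were multiples of 3 for 83.2% of well-read genes, so the scale is close to reads per kilobase of coding length. Defining cardiomyocyte markers were mostly absent: of 24 listed, 18 were under 1 RPKM in all 4 libraries and 7 of these were listed at 0 in all 4, MYH6, RYR2, NKX2-5 and PLN among them. The list was not wholly absent, as 5 of the 24 passed the filter on low values and the 24 summed to 302 to 326 RPKM. All 15 listed fibroblast markers passed the filter on low values, with a summed level of 8029 to 8862 RPKM. So did 8 of 10 smooth muscle and pericyte markers, 1 of 10 endothelial, 3 of 10 macrophage and leukocyte and 3 of 8 epithelial markers, and 0 markers on these lists passed the limma test. At an unadjusted p under 0.05 by limma, 6 of the 15 fibroblast markers were higher and 0 lower. Of the 8 smooth muscle and pericyte markers 3 were higher and 0 lower. Over all genes tested 5.16% were higher and 5.36% lower at that level. Among tested markers of the other lists, 1 of 5 cardiomyocyte and 1 of 3 epithelial markers were higher. Of 3 macrophage and leukocyte markers 1 was lower, and the 1 endothelial marker was neither. By voom 1 smooth muscle and pericyte marker passed, MYOCD, a co-activator of SRF. The part of fibroblast and smooth muscle markers in the matrix and contractile results was not tested.

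The rise changed few genes past the test, and almost all of these went up. Of 11849 genes tested, 39 passed at an adjusted p under 0.05 (limma on log2(RPKM + 1), two-sided, Benjamini-Hochberg over all genes tested), or 0.329%. Higher after the rise were 37 of them (0.312%) and lower were 2 (0.0169%). Among the 37 is RANBP3L, which passed the filter on low values only through the raised group. The 37 rose between 1.40-fold and 3.33-fold, with 8 of the 39 changed at least 1 on the log2 scale. Folds are those of fitted log2(RPKM + 1) values and understate the change of low genes. Adjusted p-values of the 39 lay between 0.0269 and 0.0479. Their 2 groups did not overlap, which is also true of 42.6% of all genes tested.

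The rest of the transcriptome moved little: the middle 50% of genes lay between log2 changes of -0.10 and 0.05, with a median of -0.028 and 40.5% of fitted values above 0. In all, 115 genes differed by 1.5-fold or more, 90 of them higher and 25 lower, and 34 of the 115 passed. Called genes were better covered than most, with a median level of 67.1 RPKM against 20.8 RPKM over all genes tested. The number of calls depended on each library. Without replicate 2 after the rise 0 genes passed (404 at an unadjusted p under 0.05), and without replicate 1 after the rise 4 did, CTGF, IFIT1, IFIT2 and PRSS35. Without replicate 1 at 5 mM 805 passed, 314 higher and 491 lower, and without replicate 3 at 5 mM 560 did, 437 higher and 123 lower. In these fits the lone library of a group is taken to vary like the other group. The limma fit without a mean-variance trend and the one without the filter on low values gave 0 calls, with 1260 and 1574 genes at an unadjusted p under 0.05, and voom on recovered reads gave 49. In the reported fit 611 genes (5.16%) had an unadjusted p under 0.05 with a higher value and 635 (5.36%) with a lower one.

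**Figure D1:**
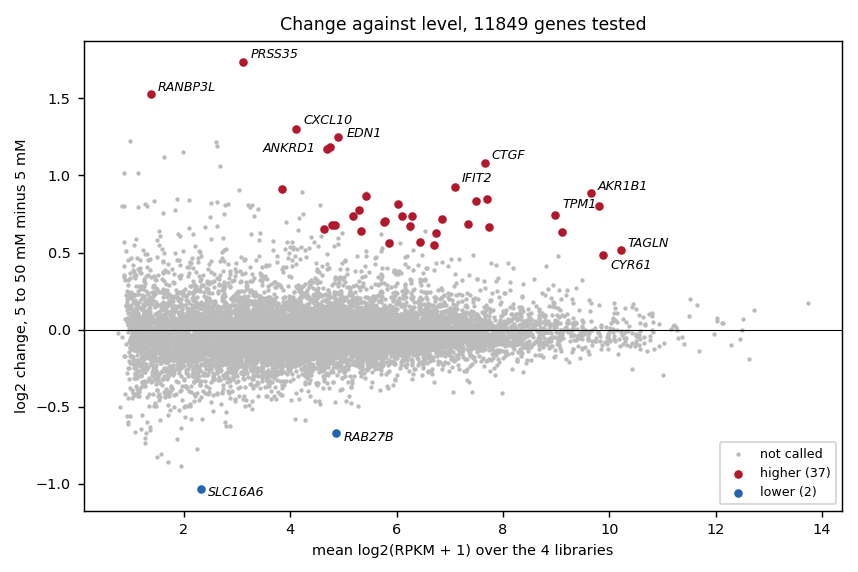
Each point is 1 of 11849 genes, with its mean log2(RPKM + 1) over the 4 libraries on the x axis and its log2 change (after the rise minus 5 mM) on the y axis. The 37 genes that passed as higher (red) lie in the upper part of the plot, PRSS35 and RANBP3L at the top, and the 2 that passed as lower, RAB27B and SLC16A6, lie in the lower part; most of the genes that did not pass (grey) lie near 0.

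**Figure D2:**
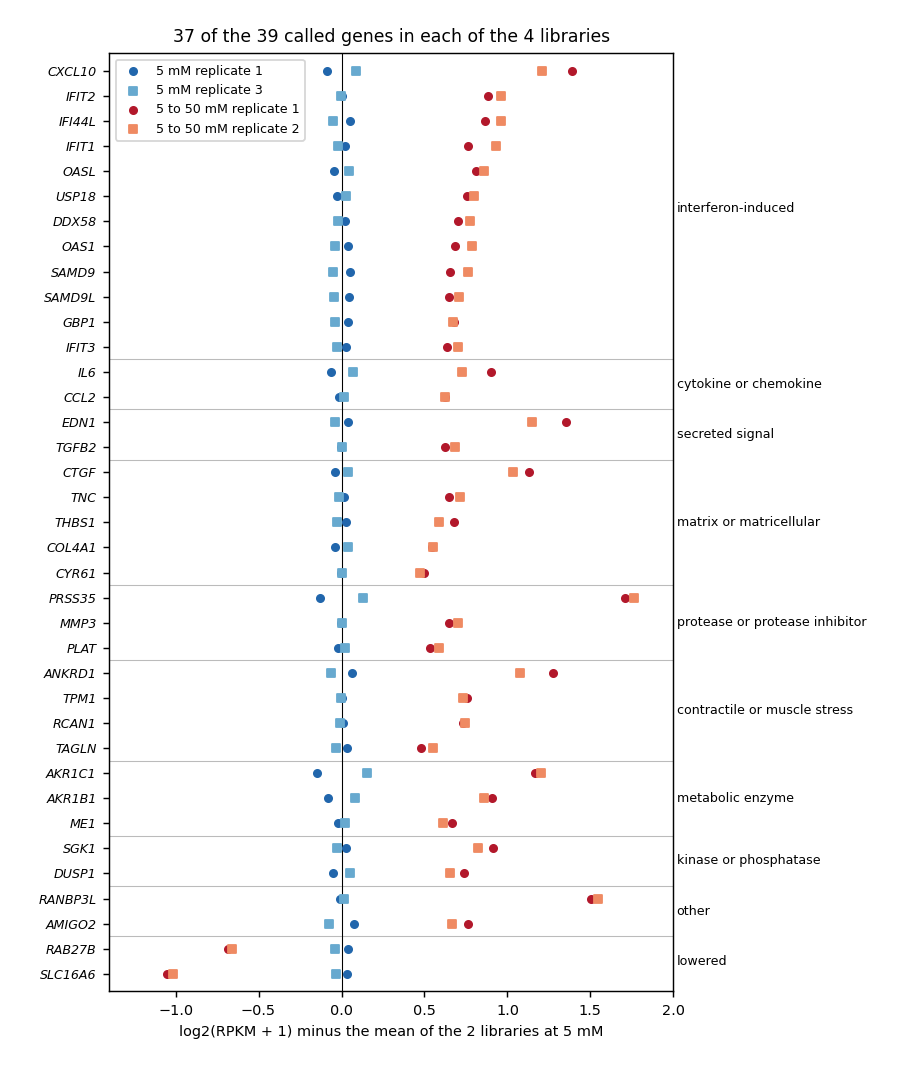
Rows are 37 of the 39 called genes grouped by role, and the x axis is each library's log2(RPKM + 1) minus the mean of the 2 libraries at 5 mM, with blue points for 5 mM and red or orange points for the raised cells. The libraries of a group sit close together in every row and the groups do not overlap.

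The largest functional group among the called genes was interferon-induced, with 12 of the 37 that rose. In the lines that follow, the 2 values at 5 mM are replicates 1 and 3, and the 2 values after the rise are replicates 1 and 2. The promoters of 4 of these genes are shown first because they carry the core of the ISRE, the letters GAAA, any 2 letters and GAAA again, on either strand. Each is the 250 bases before the first listed RefSeq start on GRCh38.p14, 5′ to 3′ in the direction of transcription, with matches in capitals: IFI44L (chr1:78620198-78620447, plus strand), IFIT1 (chr10:89392373-89392622, plus strand), IFIT3 (chr10:89327747-89327996, plus strand) and CXCL10 (chr4:76023498-76023747, minus strand).
IFI44L: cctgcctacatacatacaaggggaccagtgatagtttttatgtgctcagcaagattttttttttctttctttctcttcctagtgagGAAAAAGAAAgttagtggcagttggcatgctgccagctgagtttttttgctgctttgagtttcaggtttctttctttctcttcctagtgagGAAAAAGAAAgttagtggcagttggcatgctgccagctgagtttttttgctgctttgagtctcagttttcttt
IFIT1: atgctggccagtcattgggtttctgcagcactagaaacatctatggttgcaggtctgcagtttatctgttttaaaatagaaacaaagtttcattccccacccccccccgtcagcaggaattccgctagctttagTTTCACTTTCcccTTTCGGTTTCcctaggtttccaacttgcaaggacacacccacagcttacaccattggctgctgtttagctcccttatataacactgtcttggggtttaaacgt
IFIT3: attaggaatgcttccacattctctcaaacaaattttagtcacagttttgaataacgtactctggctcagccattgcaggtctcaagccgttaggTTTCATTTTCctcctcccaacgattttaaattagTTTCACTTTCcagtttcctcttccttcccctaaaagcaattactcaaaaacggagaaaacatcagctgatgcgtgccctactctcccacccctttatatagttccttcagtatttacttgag
CXCL10: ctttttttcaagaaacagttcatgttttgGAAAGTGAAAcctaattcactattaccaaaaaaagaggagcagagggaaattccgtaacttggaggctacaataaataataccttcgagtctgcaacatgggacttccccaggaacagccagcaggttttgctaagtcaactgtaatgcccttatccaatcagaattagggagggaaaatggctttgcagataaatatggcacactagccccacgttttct

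A promoter entry was found for 28 of the 39 called genes, and 9 of these are interferon-induced. The ISRE core was in 6 of the 9, namely IFI44L, IFIT1, IFIT3, CXCL10, GBP1 and SAMD9, and in 1 of the other 19, SGK1. Over the same 250 bases it was in 2.37% of the 9808 tested genes with an entry and in 3.07% of 27305 promoters. IFI44L, IFIT1 and IFIT3 each hold it at 2 places. In the printed promoters no capital stretch overlaps a match of another motif searched. A match is a description of letters, not of binding.

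CXCL10, a chemokine that draws T cells, was at 9.38 and 10.7 RPKM at 5 mM and 27.8 and 24.5 RPKM after the rise. Both raised libraries were above both controls, and the fitted rise was 2.46-fold (95% interval 2.05 to 2.95), the largest of the 12. IFIT2, from the IFIT family of proteins that bind foreign RNA, was at 98.2 and 98.0 RPKM at 5 mM and 182 and 192 RPKM after the rise, and its libraries were nearly equal within each group. It rose 1.89-fold (95% interval 1.72 to 2.09). Its relative IFIT1 was at 155 and 151 RPKM at 5 mM and 259.9 and 293 RPKM after the rise, with replicate 2 the highest, and rose 1.80-fold (95% interval 1.59 to 2.04). IFIT3 rose 1.59-fold (95% interval 1.44 to 1.75), from 172 and 165 to 261 and 274 RPKM. The IFIT genes are similar in sequence, so reads may be shared among them.

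IFI44L was at 9.87 and 9.11 RPKM at 5 mM and 18.1 and 19.4 RPKM after the rise and rose 1.88-fold (95% interval 1.61 to 2.19), with no overlap between groups. OAS1, which makes the oligoadenylate signal that switches on RNase L, was at 53.8 and 50.9 RPKM at 5 mM and 84.7 and 90.8 RPKM after the rise. Both raised libraries again stood above both controls, and the rise was 1.66-fold (95% interval 1.48 to 1.87). OASL, a relative without that activity, went from 129 and 138 to 235 and 244 RPKM and rose 1.78-fold (95% interval 1.61 to 1.98). DDX58 encodes RIG-I, the cytosolic sensor of viral RNA, and USP18 encodes the protease that removes ISG15 and restrains interferon signalling. DDX58 was at 60.6 and 59.0 RPKM at 5 mM and 97.8 and 103 RPKM after the rise, a rise of 1.67-fold (95% interval 1.51 to 1.85). USP18 was at 28.3 and 29.4 RPKM at 5 mM and 49.4 and 50.8 RPKM after the rise, a rise of 1.71-fold (95% interval 1.53 to 1.91). The antiviral factors SAMD9 (from 43.3 and 40.4 to 66.3 and 71.6 RPKM) and SAMD9L (from 21.4 and 19.999 to 33.0 and 34.5 RPKM) and the guanylate-binding GTPase GBP1 (from 60.7 and 57.6 to 95.1 and 94.7 RPKM) rose by similar amounts, 1.63-fold, 1.60-fold and 1.59-fold. In 10 of the 12, CXCL10 and GBP1 excepted, replicate 2 was the higher of the raised libraries. When all 8 libraries shared 1 estimate of spread, 8 of the 12 no longer passed the limma test, with adjusted p-values from 0.0645 for IFI44L to 0.430 for OAS1. The others were DDX58, IFIT1, IFIT3, OASL, SAMD9L and USP18.

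The wider interferon list held 34 effectors, all tested, of which 9 rose, 0 fell and 25 did not pass. By voom 13 passed. Fitted values were above 0 for 33 of the 34, against 40.5% of all genes, with a median of 0.51 against -0.028. The exception was IFITM2, an entry inhibitor of viruses, at -0.15. Members just short of the threshold were MX1, a GTPase that traps viral nucleocapsids, with a change of 0.64 log2 units (SE 0.07, adjusted p = 0.0549), its relative MX2 with a change of 0.75 log2 units (SE 0.09, adjusted p = 0.0564), OAS2 with a change of 0.66 log2 units (SE 0.08, adjusted p = 0.0565) and IFI44 with a change of 0.46 log2 units (SE 0.05, adjusted p = 0.0564), and these 4 passed by voom. Of 14 genes of RNA and DNA sensing 1 passed by limma, DDX58, and 2 by voom, DDX58 and IFIH1, another RNA sensor. Of 14 genes of MHC class I presentation, which interferon also induces, 0 passed by limma, 1 was higher at an unadjusted p under 0.05, and 0 passed by voom on recovered reads. TAP1, the peptide transporter, had a change of 0.32 log2 units (SE 0.11, adjusted p = 0.395).

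Few genes of inflammatory signals outside the interferon set passed the test. IL6, the acute-phase cytokine, was at 46.1 and 50.6 RPKM at 5 mM and 91.2 and 80.6 RPKM after the rise. The raised libraries were higher than both controls, and IL6 rose 1.76-fold (95% interval 1.51 to 2.04). CCL2, which attracts monocytes, was at 84.7 and 86.6 RPKM at 5 mM and 133 and 132 RPKM after the rise, with close agreement within groups, and rose 1.54-fold (95% interval 1.41 to 1.69), though in the joint fit of all 8 libraries its adjusted p was 0.0735 (limma). Among 11 tested chemokines the calls were CXCL10 and CCL2, and among 21 tested cytokines and growth factors IL6 alone passed. At an unadjusted p under 0.05 by limma, 6 of these chemokines were higher and 0 lower. Of the cytokines and growth factors 8 were higher and 1 lower, against 5.16% and 5.36% of all genes. Median changes were 0.32 and 0.16, and the 5 mM libraries differed by medians of 0.17 and 0.05 for replicate 3 minus replicate 1. The NF-kB subunits and feedback genes had 0 of 18 past the limma test and 0 by voom, 6 at an unadjusted p under 0.05, all higher, and a median of 0.17, or 0.10 without replicate 1 at 5 mM. Their libraries at 5 mM differed among themselves by nearly as much, with a median of 0.14 for replicate 3 minus replicate 1, and the part of that spread in the result was not tested.

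A second group encoded secreted signals and matricellular proteins. The promoters of 3 of these genes and of ANKRD1, a muscle stress gene described further on, are shown because they hold the letters GGAATG, the core that TEAD factors recognise. The 250 bases before the start are given as above, with GGAATG on either strand in capitals: CTGF, also called CCN2 (chr6:131951373-131951622, minus strand), ANKRD1 (chr10:90921088-90921337, minus strand), THBS1 (chr15:39580829-39581078, plus strand) and TGFB2 (chr1:218345086-218345335, plus strand).
CTGF: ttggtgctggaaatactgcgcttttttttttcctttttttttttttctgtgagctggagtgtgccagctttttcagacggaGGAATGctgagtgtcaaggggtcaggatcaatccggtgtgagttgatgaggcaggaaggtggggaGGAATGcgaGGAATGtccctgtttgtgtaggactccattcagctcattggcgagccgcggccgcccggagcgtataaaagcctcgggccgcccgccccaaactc
ANKRD1: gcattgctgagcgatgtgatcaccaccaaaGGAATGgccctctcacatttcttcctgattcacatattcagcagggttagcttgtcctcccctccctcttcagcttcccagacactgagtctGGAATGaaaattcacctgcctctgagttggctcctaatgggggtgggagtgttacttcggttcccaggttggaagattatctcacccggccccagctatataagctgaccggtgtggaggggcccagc
THBS1: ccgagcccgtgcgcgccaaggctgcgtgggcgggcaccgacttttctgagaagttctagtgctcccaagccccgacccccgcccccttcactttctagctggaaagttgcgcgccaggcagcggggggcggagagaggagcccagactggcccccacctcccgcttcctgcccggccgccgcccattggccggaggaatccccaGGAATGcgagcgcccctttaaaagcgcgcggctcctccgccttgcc
TGFB2: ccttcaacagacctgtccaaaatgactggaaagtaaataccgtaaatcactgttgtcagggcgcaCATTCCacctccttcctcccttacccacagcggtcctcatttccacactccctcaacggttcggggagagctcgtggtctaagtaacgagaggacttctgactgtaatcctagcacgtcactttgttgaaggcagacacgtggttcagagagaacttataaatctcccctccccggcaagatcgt

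CTGF holds GGAATG at 3 places and ANKRD1 at 2. The letters were in 6 of the 28 called genes with an entry (21.4%), the other two being IFIT1 and IFIT3, against 9.50% of tested genes and 11.9% of all promoters. The carbohydrate response element, bound by ChREBP and MondoA, was searched as 2 copies of CACGTG with 5 letters between them, and had 0 matches among the 28 and 1 among all 27305. The NF-kB form GGG, any 2 letters and TTTCC was in 3 of the 28, DDX58, IL6 and ME1 (10.7%, against 1.96% of tested genes). The TATA box letters TATAAA were in 6 of the 28 (21.4%, against 5.32% of tested genes). The AP-1 form, TGA, any letter and TCA, was in 4 (14.3%, against 3.82%), so an excess was not particular to GGAATG. Apart from the ISRE core, the other motifs searched were in about the same share or a smaller one.

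EDN1 encodes endothelin-1, a vasoconstrictor peptide also made by heart cells under load. It was at 18.8 and 17.8 RPKM at 5 mM and 48.2 and 41.8 RPKM after the rise. The raised libraries differed from each other more than the controls did but stayed well above them, and EDN1 rose 2.38-fold (95% interval 2.03 to 2.79), the single call among 12 vasoactive peptides and receptors tested. TGFB2, a ligand of the TGF-beta receptors, was at 18.8 and 19.0 RPKM at 5 mM and 29.6 and 31.0 RPKM after the rise and rose 1.57-fold (95% interval 1.39 to 1.77). CTGF, a matricellular protein that binds growth factors and integrins, was at 134 and 141 RPKM at 5 mM and 302 and 283 RPKM after the rise. It rose 2.12-fold (95% interval 1.905 to 2.35), the largest change of the matrix genes. CYR61 (CCN1), from the same family, was already abundant at 5 mM and had the smallest rise of the 37, from 792 and 797 to 1121 and 1105 RPKM, or 1.40-fold (95% interval 1.29 to 1.52).

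THBS1, thrombospondin-1, which can activate latent TGF-beta, went from 454 and 436 to 712 and 668 RPKM and rose 1.55-fold (95% interval 1.40 to 1.71). TNC, tenascin-C, a matrix glycoprotein of healing tissue, went from 129 and 126 to 200.3 and 209.9 RPKM and rose 1.60-fold (95% interval 1.46 to 1.76). COL4A1, a chain of basement membrane collagen, went from 82.8 and 87.4 to 125 and 125 RPKM and rose 1.46-fold (95% interval 1.33 to 1.61). In each of these the raised libraries stood above both controls. COL4A1 was the single call among 19 collagen chains tested, and the glycoprotein matrix list had 2 calls among 25 (median 0.11), THBS1 and TNC.

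Genes of pericellular proteolysis gave 4 of the calls, of which 3 are described. PRSS35 (Entrez Gene 167681, chromosome 6, 83512534 to 83525704 on GRCh38.p14), a secreted serine protease-like protein, was at 3.36 and 4.21 RPKM at 5 mM and 14.6 and 15.2 RPKM after the rise. Both raised libraries were far above both controls, and its rise of 3.33-fold (95% interval 2.72 to 4.07) was the largest of the 39 at a pseudocount of 1. PLAT, tissue plasminogen activator, which starts the breakdown of fibrin, went from 45.9 and 47.2 to 67.9 and 70.6 RPKM and rose 1.48-fold (95% interval 1.33 to 1.64). MMP3, a matrix metalloproteinase also known as stromelysin, went from 21.7 and 21.8 to 34.6 and 35.9 RPKM and rose 1.60-fold (95% interval 1.42 to 1.79). Of 21 matrix proteases and inhibitors tested, 3 rose (PRSS35, MMP3 and PLAT), 0 fell, and the median was 0.07, or 0.05 without replicate 1 after the rise.

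Contractile and muscle stress genes made up 4 of the calls. ANKRD1, a titin-associated ankyrin repeat protein induced by load, was at 17.0 and 15.6 RPKM at 5 mM and 40.7 and 35.4 RPKM after the rise. The raised libraries were above both controls with the wider spread, and the rise was 2.26-fold (95% interval 1.91 to 2.67). TPM1, tropomyosin, which covers actin filaments, was nearly the same within groups, from 391 and 389.8 to 661 and 648 RPKM, and rose 1.68-fold (95% interval 1.54 to 1.82). TAGLN, the actin-binding protein transgelin, was the highest of these, from 1014 and 972 to 1384 and 1457 RPKM, and rose 1.43-fold (95% interval 1.297 to 1.57). RCAN1, an inhibitor of the phosphatase calcineurin that calcineurin itself induces, went from 27.0 and 26.8 to 45.4 and 45.8 RPKM and rose 1.67-fold (95% interval 1.4996 to 1.86). RCAN1 was alone in its list: of 13 calcineurin and NFAT genes tested, 12 did not pass.

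The actin and SRF list had 2 calls, TPM1 and TAGLN, among 32 genes tested, and 3 by voom with MYOCD. Values were above 0 for 27 of the 32, against 40.5% of all genes, and the median was 0.19. The caldesmon gene CALD1, whose protein binds actin and tropomyosin, had a change of 0.43 log2 units (SE 0.05, adjusted p = 0.0572). The medians of this list for the library differences within groups were close to 0, at -0.01 at 5 mM and 0.02 after the rise. Of 22 YAP1/TAZ targets 4 rose, CTGF, CYR61, ANKRD1 and TGFB2, and 18 did not pass, with a median of 0.13, or 0.09 without replicate 1 at 5 mM. YAP1 itself had a change of -0.10 log2 units (SE 0.06, adjusted p = 0.604) and WWTR1 a change of -0.15 log2 units (SE 0.07, adjusted p = 0.558). MAPK3 had a change of -0.02 log2 units (SE 0.06, adjusted p = 0.935), and changed sign when single libraries were left out.

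Metabolic enzymes rose in 4 cases, of which 3 are described. AKR1B1, aldose reductase, the first enzyme of the polyol pathway, was abundant at 559 and 626 RPKM at 5 mM and 1109 and 1074 RPKM after the rise. The raised libraries stood far above the controls, and AKR1B1 rose 1.84-fold (95% interval 1.63 to 2.08). AKR1C1, a hydroxysteroid dehydrogenase of the same superfamily, went from 15.1 and 18.8 to 39.1 and 40.1 RPKM and rose 2.27-fold (95% interval 1.87 to 2.76). Its near copy AKR1C3 had a change of 0.81 log2 units (SE 0.10, adjusted p = 0.0639) and passed by voom, and AKR1C2 had a change of 0.85 log2 units (SE 0.15, adjusted p = 0.159), and reads may be shared among the AKR1C genes. ME1, the cytosolic malic enzyme that makes NADPH, went from 30.7 and 31.6 to 50.0 and 48.2 RPKM and rose 1.56-fold (95% interval 1.39 to 1.74). It was the single call among 23 genes of the NRF2 antioxidant list.

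SGK1, a kinase that osmotic stress and steroid hormones induce, was at 31.2 and 30.1 RPKM at 5 mM and 58.5 and 55.0 RPKM after the rise and rose 1.82-fold (95% interval 1.62 to 2.05). DUSP1, a phosphatase that switches off MAP kinases, was at 39.95 and 42.9 RPKM at 5 mM and 69.8 and 65.8 RPKM after the rise and rose 1.62-fold (95% interval 1.44 to 1.83). In both genes the raised libraries were above both controls. DUSP1 was the single call among 21 ERK feedback genes and MAP kinase phosphatases tested. In the osmotic stress list SGK1 and AKR1B1 were the 2 calls among 19 genes tested. The neutral amino acid transporter SLC38A2 had a change of 0.43 log2 units (SE 0.05, adjusted p = 0.0674), and the inositol transporter SLC5A3 a change of 0.31 log2 units (SE 0.11, adjusted p = 0.436). The list's median was 0.09, or 0.05 without replicate 1 after the rise.

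RANBP3L (Entrez Gene 202151, chromosome 5, 36246913 to 36301902), which encodes a Ran-binding protein, was low at 5 mM. It was at 0.518 and 0.544 RPKM at 5 mM and 3.35 and 3.47 RPKM after the rise, and rose 2.88-fold (95% interval 2.39 to 3.48) on the scale used. Both control libraries were under 1 RPKM, so it passed the filter only through the raised group where it was high. Its call and interval are therefore given as a description only, and the size of its change depends on the scale. The log2 change was 1.53 at a pseudocount of 1, 2.48 at 0.1 and 2.65 by voom, against 1.73, 1.954 and 1.96 for PRSS35. AMIGO2, a cell adhesion protein, went from 93.7 and 84.4 to 151 and 142 RPKM and rose 1.64-fold (95% interval 1.44 to 1.87).

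The 2 genes that fell were SLC16A6 and RAB27B. SLC16A6 (Entrez Gene 9120, chromosome 17, 68267026 to 68291479), from the monocarboxylate transporter family, was at 6.32 and 6.02 RPKM at 5 mM and 2.45 and 2.55 RPKM after the rise. Both raised libraries were under both controls, and it fell to 0.488 times its level (95% interval 0.412 to 0.579). RAB27B (Entrez Gene 5874, chromosome 18, 54717857 to 54895516), a GTPase that docks secretory vesicles and multivesicular bodies at the membrane, was at 36.9 and 35.0 RPKM at 5 mM and 22.0 and 22.3 RPKM after the rise. It fell to 0.627 times its level (95% interval 0.557 to 0.707), again with no overlap. It did not pass by voom (adjusted p = 0.0541) or in the joint fit of all 8 libraries (adjusted p = 0.0824, limma). SLC16A6 was the single call among 17 genes of pyruvate and monocarboxylate transport tested. RAB27B was the single call by limma, and 0 passed by voom, among 20 Rab and exocytosis genes tested, in which 10 values were above 0 and 10 below. The synaptotagmin-like Rab27 effector SYTL2 had a change of -0.36 log2 units (SE 0.10, adjusted p = 0.307) and the membrane fusion protein SNAP25 a change of -0.35 log2 units (SE 0.08, adjusted p = 0.253).

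Lower values that came nearest to the threshold, among genes averaging 5 RPKM or more, began with CYP1B1, an estrogen and hydrocarbon hydroxylase, at 62.5 and 71.3 RPKM at 5 mM and 43.3 and 39.5 RPKM after the rise and a change of -0.68 log2 units (SE 0.09, adjusted p = 0.0771). MDM2, the ubiquitin ligase that degrades p53 and is itself a p53 target, was at 41.5 and 39.9 RPKM at 5 mM and 28.6 and 29.5 RPKM after the rise, with a change of -0.47 log2 units (SE 0.07, adjusted p = 0.0865). The glucose-6-phosphate transporter relative SLC37A2 had a change of -0.47 log2 units (SE 0.07, adjusted p = 0.0930), the lysophosphatidic acid producer ENPP2 a change of -0.43 log2 units (SE 0.06, adjusted p = 0.107) and the aminopeptidase ANPEP a change of -0.34 log2 units (SE 0.05, adjusted p = 0.107). Next were SPTSSA, ADORA2B, EVI2A, CD109, ALDH1A3, LAMA4 and FAM129A, with log2 changes from -0.58 (EVI2A) to -0.37 (SPTSSA). These 12 were chosen as genes that did not pass and whose groups did not overlap. Groups did not overlap in 42.6% of all genes tested.

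Higher values just short of the threshold included CRYAB, the small heat shock protein alpha-B crystallin, at 11.7 and 13.8 RPKM at 5 mM and 24.8 and 24.0 RPKM after the rise with a change of 0.89 log2 units (SE 0.10, adjusted p = 0.0520). KISS1, which encodes the kisspeptin precursor, had a change of 0.91 log2 units (SE 0.11, adjusted p = 0.0572), the scaffold protein NEDD9 a change of 0.78 log2 units (SE 0.09, adjusted p = 0.0565) and N-cadherin, CDH2, a change of 0.56 log2 units (SE 0.07, adjusted p = 0.0572). CDH2 passed by voom. TMEM171, TMEM47 and APLP2 had log2 changes of 0.72, 0.64 and 0.41. With MX1, MX2, OAS2, IFI44 and CALD1 these are the 12 nearest among genes averaging 5 RPKM or more and without overlap between groups. Of the 12, 4 are interferon-induced.

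Genes that take up and burn glucose gave no call. Only 0.329% of all genes tested passed, so 0 calls in lists of this size is near that share. Of 7 glucose transporters, 20 glycolytic enzymes, 10 hexosamine and O-GlcNAc genes, 20 genes of the tricarboxylic acid cycle and 26 nuclear genes of the respiratory chain, 0 passed by limma and 0 by voom. At an unadjusted p under 0.05, 3 glycolytic enzymes were lower and 0 higher, the cycle had 1 higher gene and 3 lower ones, and 0 respiratory chain genes were either. The hexosamine and O-GlcNAc list had 2 higher and 2 lower, and the transporters 0 higher and 1 lower. Over all genes tested 5.16% were higher and 5.36% lower at that level. SLC2A1, the main basal glucose transporter, had a change of 0.06 log2 units (SE 0.06, adjusted p = 0.775), and SLC2A3 a change of -0.16 log2 units (SE 0.06, adjusted p = 0.453). Of 14 targets of MondoA and ChREBP, the transcription factors that sense glucose phosphates, 0 passed by limma or voom and 2 were lower at an unadjusted p under 0.05. Cholesterol synthesis and uptake gave 0 calls by limma or voom. Values were above 0 for 21 of 24 genes (median 0.16), against 40.5% of all genes. At an unadjusted p under 0.05 by limma 12 were higher, against 5.16% of all genes. SQLE, squalene epoxidase, had a change of 0.25 log2 units (SE 0.06, adjusted p = 0.245) and the sterol carrier STARD4 a change of 0.36 log2 units (SE 0.06, adjusted p = 0.161).

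The p53 target list stood at the other end. All 21 tested members had values below 0, against 59.5% of all genes tested, with a median of -0.25. Without replicate 3 at 5 mM the median was -0.18. At an unadjusted p under 0.05 by limma 10 were lower, against 5.36% of all genes. For p53 targets at 5 mM, replicate 3 was above replicate 1 by a median of 0.10, whose part was not tested. By limma and by voom 0 passed. CCNG1, cyclin G1, had a change of -0.28 log2 units (SE 0.06, adjusted p = 0.236), the death receptor TNFRSF10B a change of -0.29 log2 units (SE 0.07, adjusted p = 0.248) and the ribonucleotide reductase subunit RRM2B a change of -0.33 log2 units (SE 0.09, adjusted p = 0.311). Of 24 G2/M and mitosis genes, 23 had values below 0 (median -0.14, or -0.07 without replicate 1 at 5 mM), and 0 passed by limma or voom, with 7 lower at an unadjusted p under 0.05. The spindle protein NUSAP1 had a change of -0.27 log2 units (SE 0.05, adjusted p = 0.194) and cyclin B2, CCNB2, a change of -0.23 log2 units (SE 0.05, adjusted p = 0.253). For that list replicate 3 was also below replicate 1 at 5 mM, with a median difference of -0.13, whose part was not tested. Of 18 hypoxia targets 0 passed by limma or voom, the unadjusted p was under 0.05 for 2 with higher and 5 with lower values, with a median of -0.11 (-0.07 without replicate 2 after the rise), and VEGFA, vascular endothelial growth factor, had a change of -0.50 log2 units (SE 0.15, adjusted p = 0.342).

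TGF-beta and BMP genes had 19 of 21 values above 0, against 40.5% of all genes. Their median was 0.35, and 2 passed, TGFB2 among them. Without replicate 1 at 5 mM the median was 0.17. BAMBI, a decoy receptor, had a change of 0.45 log2 units (SE 0.06, adjusted p = 0.0969) and SKIL, a repressor of SMAD signalling, a change of 0.52 log2 units (SE 0.09, adjusted p = 0.165). The 10 tested replication-dependent histone genes had a median of 0.40 and 0 calls by limma or voom, 6 of them higher at an unadjusted p under 0.05, with HIST1H2AC at 25.6 and 36.3 RPKM at 5 mM and 55.9 and 58.6 RPKM after the rise. The controls of these lists were themselves uneven, with medians of 0.21 and 0.31 for replicate 3 minus replicate 1, whose part was not tested. Histone genes are near copies of each other, and reads may be shared among them.

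**Figure D3:**
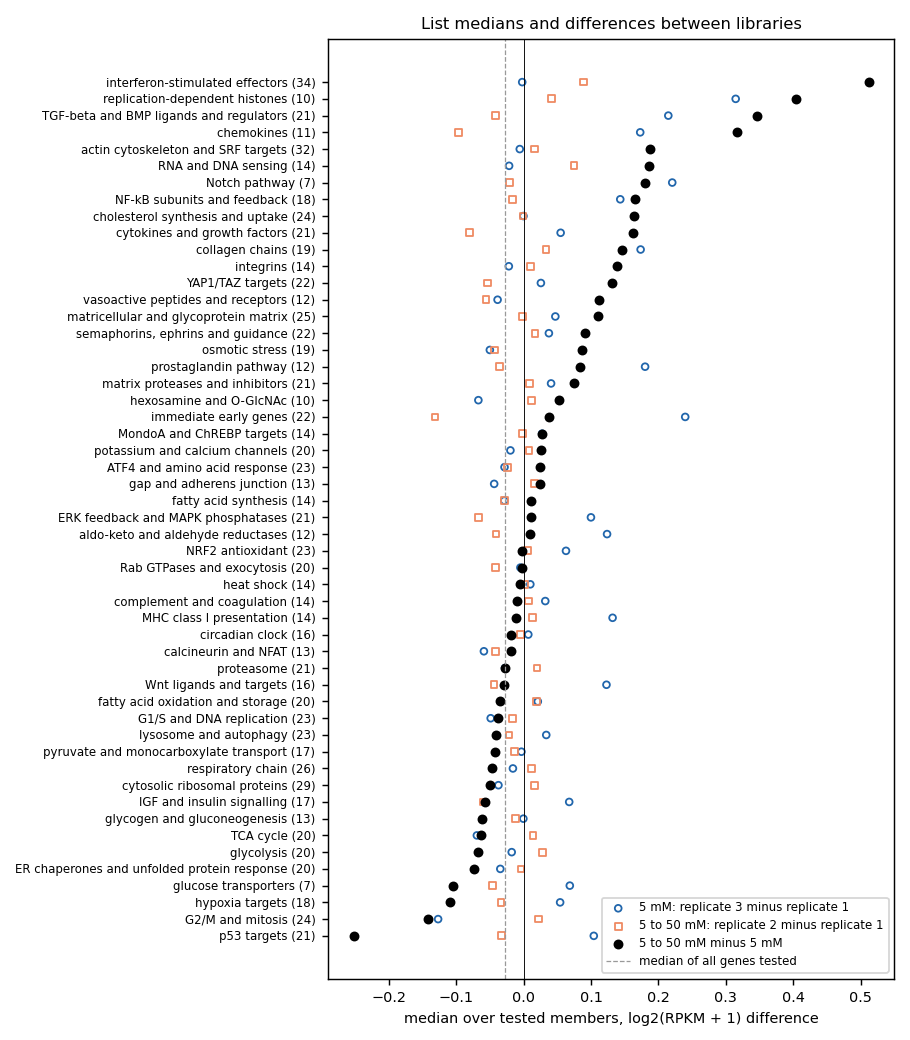
Rows are gene lists with at least 5 tested members (number in brackets), and the x axis is the median over members of a log2(RPKM + 1) difference: filled points for the raised minus the 5 mM group, open points for the libraries within each group. Interferon-stimulated effectors lie farthest to the right, p53 targets farthest to the left, and for several lists the open blue points of the 5 mM group lie as far from 0 as the filled ones.

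In the rise from 25 to 50 mM 1 of 11422 genes passed (0.00876%), TAGLN, whose log2 change there was 0.71 (SE 0.04, adjusted p = 0.0220). The tables of the rises were deposited separately, so levels set across them are side by side only. Of the 37 genes that rose from 5 mM, 33 were tested from 25 mM, and 21 of these had values above 0 there, against 36.3% of all genes. Matrix genes (5 of 5, median 0.40), contractile and stress genes (4 of 4, median 0.39) and secreted signals (2 of 2) all had values above 0. Interferon-induced genes did so in 2 of 10 cases, with a median of -0.15, and the cytokines in 0 of 2.

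OAS1 shows the spread behind this: it was at 2.00 and 6.72 RPKM at 25 mM and 2.82 and 1.97 RPKM after the rise from 25 mM, so replicate 3 at 25 mM stood above the other libraries of that rise. CTGF was at 159 and 179 RPKM at 25 mM and 228 and 219 RPKM after the rise from 25 mM, a log2 change of 0.40 that did not pass. EDN1 was at 17.95 and 19.0 RPKM at 25 mM and 27.8 and 27.0 RPKM after the rise from 25 mM, a log2 change of 0.55. AKR1B1, which rose from 5 mM, was at 138 and 149 RPKM at 25 mM and 159.5 and 149 RPKM after the rise from 25 mM.

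**Figure D4:**
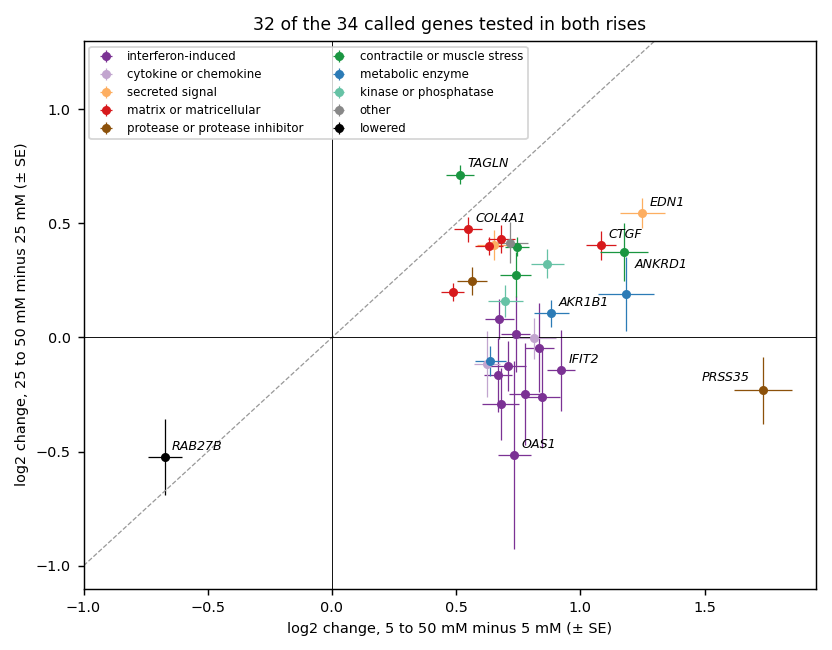
Points are called genes tested in both rises, with the log2 change from 5 mM on the x axis and from 25 mM on the y axis, bars giving the SE and the dashed line equal changes. Matrix, contractile and secreted genes lie above 0 on both axes, most interferon-induced genes lie near or below 0 on the y axis with long bars, and TAGLN lies above the dashed line.

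The difference between the rises was itself tested over all 8 libraries. It passed for 3 of 11941 genes (0.0251%). PRSS35 was among them, at 1.03 and 1.48 RPKM at 25 mM and 0.983 and 0.838 RPKM after the rise from 25 mM, with a difference of 1.97 on the log2 scale (SE 0.19, adjusted p = 0.0361). RANBP3L was at 0.0465 and 0.0685 RPKM at 25 mM and 0.126 and 0.0248 RPKM after the rise from 25 mM, with a difference of 1.503. It was under 1 RPKM in the other 6 libraries and entered the fit, which needed 1 RPKM in 2 libraries, only through the 2 raised ones where it was high, so its call is no evidence of a difference. SERPINB2, an inhibitor of plasminogen activators, went the other way. It was at 274 and 259 RPKM at 5 mM and 239 and 245 RPKM after the rise, and at 94.6 and 100.2 RPKM at 25 mM and 146 and 149 RPKM after the rise from 25 mM, with a difference of -0.73 (SE 0.07, adjusted p = 0.0361). Of the 39 genes called from 5 mM, 36 had an unadjusted p under 0.05 for this difference, against 6.04% of all genes in the fit, a count that their choice by the rise from 5 mM partly fixes. The interferon-induced genes did not pass this test with all libraries. Without replicate 1 at 25 mM, IFIT1, IFIT2, IFIT3, OASL and USP18 did, and PRSS35 remained. Replicate 3 was then the only control at 25 mM, and in each of these interferon genes it was the highest library of that rise. OASL was at 26.5 RPKM in it, against 16.5 RPKM in replicate 1 at 25 mM and 19.96 and 20.6 RPKM after the rise from 25 mM. The part of replicate 3 was not tested, so the calls without replicate 1 at 25 mM are given as a description only. Leaving out any of the other 7 libraries gave 0 calls, as did voom and pseudocounts of 0.1 and 0.5.

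The libraries at 5 mM were the more uneven pair. Among 9707 genes averaging 5 RPKM or more, 507 (5.22%) differed by over 0.5 on the log2 scale between replicates 3 and 1, all higher in replicate 3, against 44 (0.453%) between the raised libraries. The difference followed base composition: its median went from -0.07 in the lowest to 0.39 in the highest decile of transcript GC content. TUSC1 (2.62 and 17.9 RPKM at 5 mM and 10.9 and 4.31 RPKM after the rise) and CCDC85B (42.8 and 161 RPKM at 5 mM and 109 and 60.1 RPKM after the rise) were the extremes, and their raised libraries differed too. CCDC85B has a GC content of 67.7%, in decile 10. TUSC1 has 52.4%, in decile 7, where the median difference was 0.02, so not every uneven gene followed that pattern. The log2 change itself had a median between -0.02 and -0.04 in every decile. Called genes had a median GC content of 44.3%, against 48.3% over all tested, and 0 of them were in deciles 9 and 10. With GC content removed from each library, 86 genes passed, 78 higher and 8 lower, including all 39; the part of GC content in the result was tested in this way only.

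**Figure D5:**
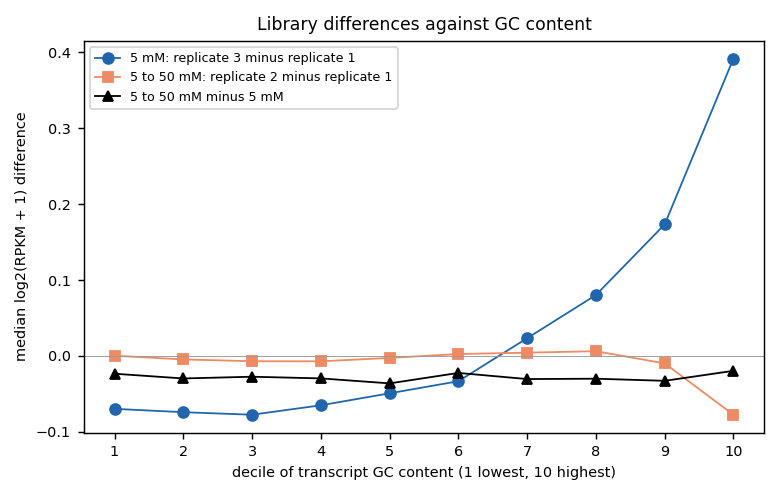
The x axis is the decile of transcript GC content over the genes tested and the y axis the median log2(RPKM + 1) difference of 3 contrasts. The line for the 5 mM libraries (replicate 3 minus replicate 1) climbs to 0.39 in the highest decile, while the line for the rise stays between -0.02 and -0.04.

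The most abundant transcripts did not pass. TMSB10 and TMSB4X, the actin-sequestering thymosins, ACTB, FTL, EEF1A1, GAPDH, MT2A and PPIA had log2 changes from -0.19 (FTL, ferritin light chain) to 0.17 (TMSB10). No gene went from near 0 to clearly present or the reverse: 0 genes had fewer than 3 reads in both libraries of 1 group and at least 10 reads in both libraries of the other.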

How the data were processed

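The authors deposited RPKM values (reads scaled to library total and gene length) in 1 table for each starting glucose, with 8 columns of libraries in all. The submitters' processing notes name STAR and hg38; the STAR version, the counting tool and the annotation are not given in the sources used here. Total RNA was extracted with TRIzol, per the labels. Whole reads, library totals and gene lengths were recovered from the steps of the RPKM values. The 4 libraries were fitted with limma 3.58.1 in R 4.3.3 on log2(RPKM + 1), with a mean-variance trend, 2 residual degrees of freedom, a filter of at least 1 RPKM in at least 2 libraries and Benjamini-Hochberg adjustment over all genes tested, at 0.05. The scripts were tested on simulated data. Each difference between the rises was fitted over all 8 libraries.

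Members and lists, 60 in all, were chosen with earlier results of these data known, so no list is independent support. Genes named are all those called, the 12 nearest the threshold in each direction averaging 5 RPKM or more and without overlap between groups, up to 4 members per list, the 8 most abundant, the genes most uneven between libraries, the genes called in the difference of the rises and genes named in the title. A few of these are not reported here or drawn in the plots of named genes. IFITM2, MYH6, RYR2, NKX2-5, PLN and SLC2A1 were added after their values were seen. Groups within the 4 libraries share only replicate number 1, so no block could be fitted there. Alternatives were other pseudocounts (0.1 and 0.5), filters, scalings, voom, a correction for GC content, joint fits and leaving out each library. GC content is that of the longest protein-coding GENCODE transcript. Gene positions and promoters are from RefSeq on GRCh38.p14; 28 of the 39 called genes matched a promoter.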

Additional observations from a re-analysis of the deposited data

Results flagged for a closer look

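The response differed between the rises from 5 and from 25 mM for 3 genes, by a test of the difference itself over 8 libraries (limma, Benjamini-Hochberg over 11941 genes). For PRSS35 the log2 change from 5 mM exceeded that from 25 mM by 1.97, with 3.36 and 4.21 RPKM at 5 mM and 14.6 and 15.2 RPKM after the rise and 1.03 and 1.48 RPKM at 25 mM and 0.983 and 0.838 RPKM after the rise from 25 mM. For RANBP3L it did so by 1.503, and all 4 libraries of the 25 mM table and both controls at 5 mM were under 1 RPKM. RANBP3L passed the filter only through the 2 raised libraries where it was high, so its call is given as a description. For SERPINB2 the difference was -0.73, from a log2 change of -0.14 from 5 mM and 0.59 from 25 mM. PRSS35 and RANBP3L were already chosen by their rise from 5 mM, so the direction of their difference is partly fixed by that choice. No group had 4 or more libraries, so single libraries that stand apart could not be tested as such.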

How the results depend on the processing

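All 39 called genes kept their direction in each alternative that tested them, and each was called in 9 to 12 of 16. From 39 calls, the count moved to 0 without the filter and to 0 without the mean-variance trend (smallest adjusted p = 0.0512), to 60 with median centring, 61 with quantile normalization, 86 with the correction for GC content and 130 in the joint fit of all 8 libraries, 29 of the 39 among them. Of the 10 lost there, 8 are interferon-induced and the others are CCL2 and RAB27B. It ranged from 0 to 805 when single libraries were left out. In the joint fit with replicate number as a block 0 genes passed (883 at an unadjusted p under 0.05); the numbers are not stated to pair libraries. The 3 calls of the difference between the rises became 0 with a pseudocount of 0.1 or 0.5, 0 with a mean of at least 5 RPKM, 0 by voom, 0 with the replicate block, and 1 each without the filter, without the trend and with the correction for GC content, with a range of 0 to 6 when single libraries were left out. The cause of these shifts was not tested. With single libraries left out, MAPK3 ranged from -0.072 to 0.023, above 0 without replicate 1 at 5 mM (0.000549) and without replicate 1 after the rise. Median centring moved the median of all genes from -0.028 to -0.011. Each group has 2 libraries, which leaves 2 residual degrees of freedom, and what read depth adds to this limit for genes of few reads was not tested.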

Other observations

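Housekeeping and stress programmes outside the groups above gave no call by limma. Over all genes tested 0.329% passed, so 0 calls in lists of this size is near that share. At an unadjusted p under 0.05 by limma, 5.16% of all genes were higher and 5.36% lower. Of 29 cytosolic ribosomal proteins 27 had values below 0 (median -0.05, against -0.028 over all genes), and 1 was lower at an unadjusted p under 0.05. Of 20 endoplasmic reticulum chaperones and unfolded protein response genes 2 were higher and 2 lower at that level, of 14 heat shock genes 1 was higher, and of 23 genes of the ATF4 and amino acid response 3 were higher and 2 lower. Among 22 immediate early genes 5 were higher at that level, and their libraries at 5 mM differed by a median of 0.24 for replicate 3 minus replicate 1. Of 21 proteasome subunits 1 was higher, and of 16 circadian clock genes 1 was lower. Voom on recovered reads also called 0 members of these lists.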
